A study of Capra hircus with 2 samples.

Results

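miR-221 and miR-222 are a pair of miRNAs whose genes lie side by side, and they were followed here in mammary glands of dairy goats that were dry or at the peak of lactation. They are 2 of the 346 conserved goat miRNAs that the study listed, and they were chosen by name. A read was counted for one of them when it was identical to the listed mature sequence for at least 18 nt from the 5′ end, and each read went to the listed miRNA with the longest identical stretch. The 3′ end was free, so that trimmed and extended forms were kept. By this rule 100 distinct tags (read sequences) belonged to miR-221 and 101 to miR-222 in the dry library, and 42 and 47 in the lactation library.

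Each stage was represented by 1 small RNA library, made from total RNA pooled from the mammary glands of 3 untreated Xinong Saanen goats. The goats were 2.5 years old. The study's text places the dry period at 320 days after lambing and peak lactation at 75 days, whereas the labels of the samples have them swapped, so each stage follows the title of its sample. Whole glands were used, and in such tissue fewer cells of a type and less RNA per cell cannot be told apart. Sequencing gave 14851375 clean reads for the dry library (dry period) and 15712891 for the lactation library (peak lactation), of which 61.1% and 14.4% came from conserved miRNAs. With 1 library per stage there was no spread between replicates to set a difference against, and all p-values and 95% intervals given here cover the sampling of reads in these 2 libraries alone.

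A miRNA is cut from a hairpin precursor by Drosha and Dicer, loaded into an Argonaute protein, and guided to messenger RNAs mainly by its seed, the stretch of bases 2 to 8. miR-221 and miR-222 are made from the same primary transcript in vertebrates. They are best known for repressing the cell cycle inhibitor CDKN1B and the receptor KIT, and in breast cancer cells the oestrogen receptor ESR1, and they are abundant in blood vessel walls. In the goat annotation (RefSeq, ARS1.2) MIR221 and MIR222 are on the same chromosome, with 0 other genes starting between them. The listed mature sequences are shown here, with the seed in capitals, because the pair shares the seed and differs in the rest.

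miR-221: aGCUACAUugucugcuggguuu
miR-222: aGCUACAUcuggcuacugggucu

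The sequences are identical for 8 bases from the 5′ end, and 9 of their first 18 bases differ, so that no read could be counted for both. Of the 346 listed miRNAs, 2 carried the seed GCUACAU, namely miR-221 and miR-222 themselves. Both are the 3p arm of their hairpin. For miR-222 the study sequenced the goat precursor of 110 nt. The listed sequence takes up positions 69 to 91 of this precursor. With the precursor the study prints a shorter mature form of miR-222, which starts at the same base and lacks the last bases of the listed sequence. The listed sequence was used here throughout, and the comparisons of 3′ ends with it depend on that choice. A stretch of the precursor is given because it shows which bases follow the listed miRNA (capitals) in the gene.

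miR-222 within its precursor: guAGCUACAUCUGGCUACUGGGUCUcugau

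Both miRNAs were far less abundant in the lactation library. miR-221 had 11400 reads in the dry library, or 768 reads per 1000000 clean reads (RPM; Wilson 95% interval 754 to 782), and 1211 reads in the lactation library, or 77.1 RPM (72.9 to 81.5). miR-222 had 6265 reads in the dry library, or 422 RPM (412 to 432), and 921 reads in the lactation library, or 58.6 RPM (54.9 to 62.5). In both stages miR-221 was the more abundant of the pair, and the plot of levels shows the intervals of the stages far apart for both.

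**Figure D1:**
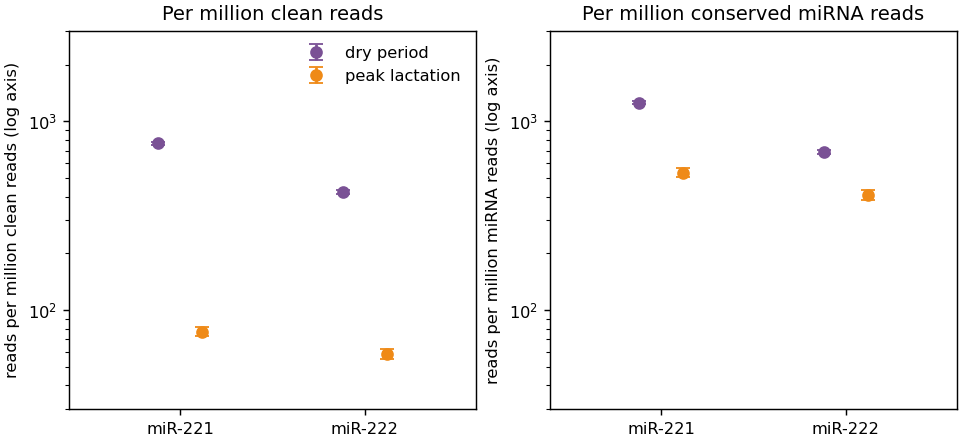
Levels of miR-221 and miR-222 in the dry period and peak lactation libraries, 1 library per stage, per 1000000 clean reads (left) and per 1000000 conserved miRNA reads (right), on log axes. Points are the level and bars the Wilson 95% interval for read sampling; the peak lactation points lie below the dry period points in both panels, by less on the right, where miR-221 goes from 1255 to 534 and miR-222 from 690 to 406.

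The log2 fold change (peak lactation over dry period) was -3.32 for miR-221 (95% interval -3.40 to -3.23), a level 9.96 times as high in the dry period. It was -2.85 for miR-222 (-2.95 to -2.75), a level 7.20 times as high in the dry period. In an exact Audic-Claverie test, which compares these libraries and not the stages, the log10 of p was -2193 for miR-221 and -1037 for miR-222. Both miRNAs thus passed the thresholds used for a call, a log2 fold change beyond 1 in either direction with p under 0.01.

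Most conserved miRNAs passed the same thresholds downwards. Of 257 miRNAs at 1 RPM or more in one of the libraries, 174 were called lower at peak lactation, which is 67.7%, and 3 (1.17%) higher. Per clean read, a call as lower is therefore no more than the usual outcome in these libraries. The median log2 fold change of the 257 miRNAs was -1.44, with quartiles of -2.15 and -0.92, so that both members lay below the lower quartile. Counted from the largest decrease, miR-221 was 14th and miR-222 31st. In order of read number among all listed miRNAs, miR-221 went from place 45 to place 74 and miR-222 from place 58 to place 81.

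**Figure D2:**
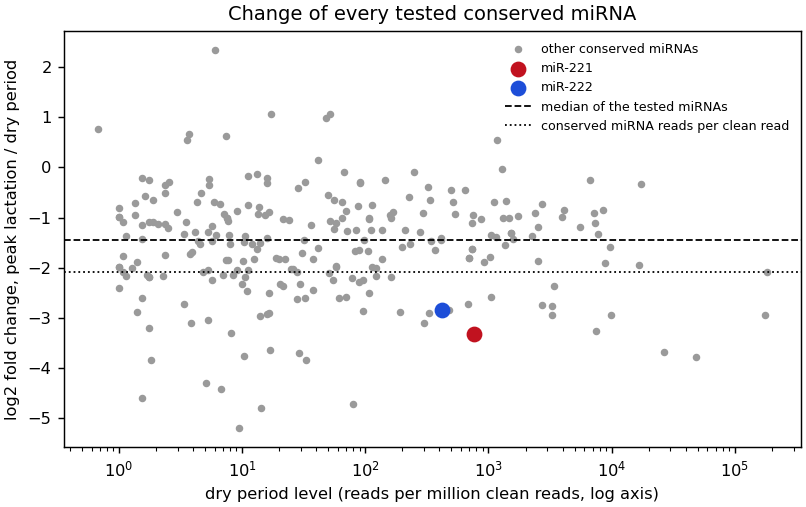
Log2 fold change (peak lactation over dry period) of the 257 tested conserved miRNAs against their level in the dry period (RPM, log axis), with miR-221 and miR-222 as large points. The dashed line is the median of the tested miRNAs (-1.44) and the dotted line the change of all conserved miRNA reads per clean read (-2.08); both members lie below both lines.

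The size of the decrease depended on what the counts were divided by. Conserved miRNA reads per clean read were themselves lower at peak lactation, by a log2 ratio of -2.08. Per 1000000 conserved miRNA reads, miR-221 went from 1255 to 534 and miR-222 from 690 to 406. On this scale the log2 fold change was -1.23 for miR-221, past the threshold, and -0.76 for miR-222, short of it. Over all 257 miRNAs, 15 (5.84%) were called lower on this scale and 85 (33.1%) higher. The share of conserved miRNA reads was 0.126% and 0.0534% for miR-221 and 0.0690% and 0.0406% for miR-222. The direction was therefore the same on both scales, and a call of miR-222 as lower was not.

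The 3 conserved miRNAs with at least 1000 reads in the dry library and a log2 fold change nearest to that of miR-221, out of 103 such miRNAs, were let-7e (-3.26), miR-93 (-3.11) and miR-199a-3p (-2.96). Those nearest to miR-222 were miR-181b (-2.84), miR-296 (-2.86) and miR-432 (-2.88). With 2 libraries, this nearness rests on a single value per miRNA.

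miRNAs typical of cell types of the gland moved by different amounts. The 3 stromal miRNAs (miR-199a-3p, miR-199b, miR-214) went together from 10109 to 1310 RPM, a log2 fold change of -2.95 for their sum, and all 3 were called lower. The sum of the smooth muscle miRNAs miR-143 and miR-145 went from 11846 to 5199 RPM (-1.19), with 1 of 2 called lower, and its members were far apart, with -0.86 for miR-143 and -2.76 for miR-145. The sum of endothelial miR-126 and miR-126* went from 129 to 81.4 RPM (-0.66), with 0 of 2 called. The 6 epithelial miRNAs (miR-200a, miR-200b, miR-200c, miR-141, miR-429, miR-205) went from 2687 to 1342 RPM, with 3 called lower. The 6 immune cell miRNAs went from 1797 to 1454 RPM (-0.31), with 4 called lower. Most of these reads were of miR-146b, at -0.03, while the median of the 6 was -1.32 and miR-142* reached -2.92. The 4 skeletal muscle miRNAs (miR-1, miR-206, miR-133a, miR-133b) went from 7241 to 3847 RPM (-0.91), with 3 called lower. Nearly all of these reads were of miR-1, at -0.90 and not called, while the median of the 4 was -1.61 and miR-206 reached -2.60. The 3 red blood cell miRNAs went from 110 to 190 RPM (0.79), with 2 called higher. Every listed marker had reads in both libraries. Per conserved miRNA read the stromal sum was again lower at peak lactation (-0.86). The sums of the other 6 lists were higher on this scale, by 0.90 (smooth muscle) to 2.87 (red blood cell). Of these, the red blood cell sum was higher on both scales. The decrease of miR-222 (-2.85) was near those of miR-142*, miR-145 and miR-199a-3p (-2.96), which held most of the stromal reads. Those of miR-206 (-2.60), miR-199b (-2.50) and miR-214 (-2.45) were further from it. The decrease of miR-221 (-3.32) was larger than that of any listed marker. The part of any cell type in these decreases was not tested.

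The mates did not fall by the same factor. There were 1.82 reads of miR-221 per read of miR-222 in the dry library (95% interval 1.76 to 1.88) and 1.31 in the lactation library (1.21 to 1.43). In other words, miR-221 took 64.5% of the reads of the pair in the dry library (63.8 to 65.2%) and 56.8% in the lactation library (54.7 to 58.9%). The log2 fold change of miR-221 was lower than that of miR-222 by a difference of -0.47 (95% interval -0.60 to -0.34, Fisher's exact test, two-sided, p = 4.4e-12). This difference is a ratio within each library and is untouched by the choice of denominator. It held with identical tags alone, where the ratios were 1.90 and 1.41 and the difference -0.43 (Fisher's exact test, p = 9.4e-05).

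Neighbouring miRNAs of other shared transcripts also diverged. The log2 fold change of miR-93 was lower than that of miR-25 by a difference of -0.37 (-0.50 to -0.23). For miR-199a-3p and miR-214 the difference was -0.50 (-0.80 to -0.21), although miR-199a-3p has further gene copies elsewhere. The smooth muscle miRNAs miR-143 and miR-145 differed by 1.90 (1.86 to 1.94). The gap between miR-221 and miR-222 was thus close in size to those of the pairs miR-93 with miR-25 and miR-199a-3p with miR-214, whose intervals overlap its own, and smaller than that of miR-143 with miR-145.

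**Figure D3:**
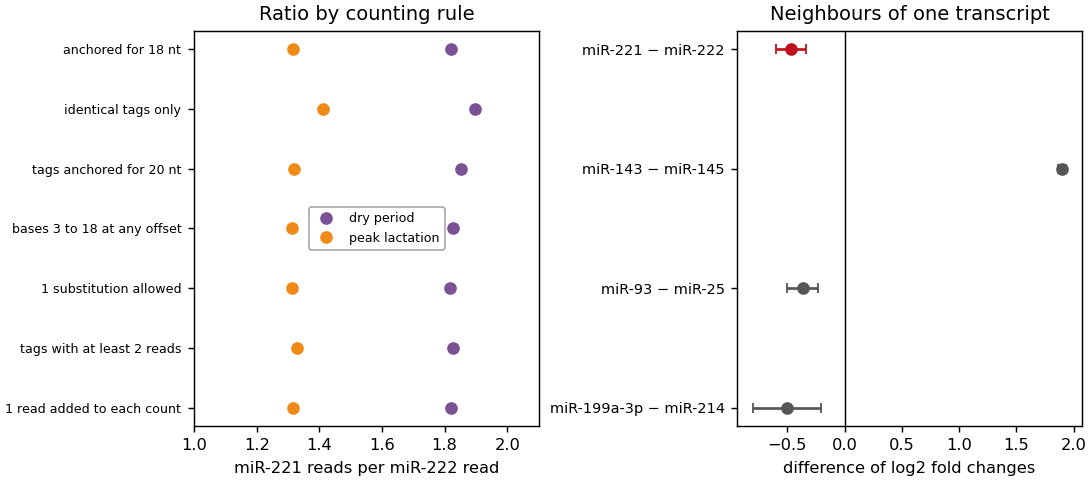
Left, reads of miR-221 per read of miR-222 in each library under 7 ways of counting; right, difference of the log2 fold changes (peak lactation over dry period) between the neighbours of 4 shared transcripts, with 95% intervals for read sampling. The ratio lies between 1.82 and 1.90 in the dry library and between 1.31 and 1.41 in the other, and the difference for miR-221 and miR-222 is -0.47.

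The sets of end variants were much alike in the libraries. For miR-221, 42.2% of the reads in the dry library and 39.4% in the lactation library were the listed sequence itself (4816 and 477 reads). Longer reads, which carry the whole listed sequence and further bases, made up 39.4% and 37.3%. Shorter reads made up 5.18% and 7.02%, and reads that left the listed sequence at base 19 or later made up 13.2% and 16.3%. For miR-222 the listed sequence made up 40.5% and 36.7% of the reads (2538 and 338 reads). Here shorter reads were more frequent than for miR-221, with 28.8% and 29.8%, and longer reads less frequent, with 22.5% and 22.1%. Reads that left the listed sequence made up 8.24% and 11.4%.

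Of 102 classes of read ends, lengths and substitutions compared between the libraries over both miRNAs, 13 had an unadjusted p below 0.05 in Fisher's exact test and 2 after Benjamini-Hochberg adjustment. No class moved by more than 3.81 percentage points. The mean read length was 22.40 nt for miR-221 in the dry library and 22.35 nt in the lactation library, a difference of -0.048 ± 0.052 nt (95% interval half-width). For miR-222 it was 22.78 and 22.76 nt, a difference of -0.019 ± 0.091 nt. Reads of 22 nt made up 50.3% and 50.0% of miR-221, and reads of 23 nt 45.7% and 44.6% of miR-222.

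**Figure D4:**
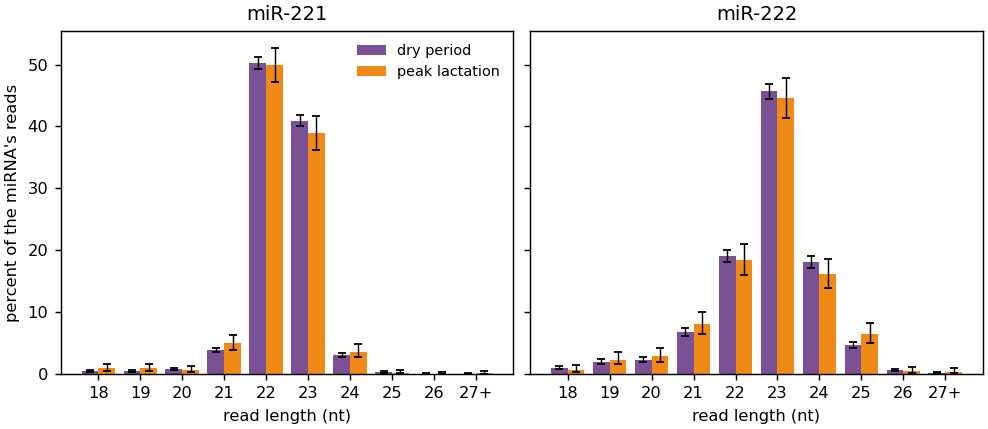
Read lengths (nt) of miR-221 and miR-222 as a percent of the reads of the miRNA in the dry period and peak lactation libraries; bars start at 0 and error bars are Wilson 95% intervals. miR-221 has its reads at 22 and 23 nt and miR-222 spreads from 21 to 25 nt around 23 nt, with overlapping profiles of the libraries.

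The most frequent 3′ ends of miR-221 are printed because they show what was added; the bases that follow the shared stretch are in capitals, and reads are written with U for T.

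miR-221 with C: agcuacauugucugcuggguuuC
miR-221 with U: agcuacauugucugcuggguuuU
miR-221 with A: agcuacauugucugcuggguuuA
miR-221 with A in place of its last base: agcuacauugucugcuggguuA
miR-221 shorter by 1 base: agcuacauugucugcuggguu

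The form with C held 2331 reads in the dry library and 218 in the lactation library, and its share of miR-221, 20.4% in the dry library, was lower at peak lactation by a difference of -2.45 points (95% interval -4.64 to -0.07, Fisher's exact test, unadjusted p = 0.046, adjusted p = 0.18). The form with U held 1077 and 112 reads (9.45% and 9.25%), and the form with A 714 and 78 reads (6.26% and 6.44%). The form that ends in A at base 22 held 663 and 88 reads (5.82% and 7.27%), and the form of 21 nt held 415 and 58 reads (3.64% and 4.79%). In all, 9 tags held at least 1% of the reads of miR-221 in one library, and together they held 92.4% and 90.1%. All 9 were lower at peak lactation, with log2 fold changes from -3.63 to -2.22, and none of their shares differed between the libraries after adjustment over the 22 such tags of both miRNAs (smallest adjusted p = 0.13, Fisher's exact test; 3 of the 9 had an unadjusted p below 0.05). No precursor of miR-221 was used here, so that bases from the gene and added bases were not separated for it.

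For miR-222 the precursor allowed this. The forms shown here differ at the 3′ end, with bases after the listed sequence or in place of it in capitals.

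miR-222 shorter by 1 base: agcuacaucuggcuacuggguc
miR-222 with C: agcuacaucuggcuacugggucuC
miR-222 with U: agcuacaucuggcuacugggucuU
miR-222 with AA in place of its last bases: agcuacaucuggcuacuggguAA
miR-222 with AU in place of its last bases: agcuacaucuggcuacuggguAU

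The form of 22 nt held 1083 and 152 reads, 17.3% and 16.5% of miR-222. The form with C, the base that follows in the precursor, held 754 and 100 reads (12.0% and 10.9%), and the form with U, which is not in the precursor, held 291 and 34 reads (4.64% and 3.69%). Reads of miR-222 identical to the precursor along their whole length made up 83.2% in the dry library (5211 of 6265 reads, 82.2 to 84.1%) and 79.5% in the lactation library (732 of 921 reads, 76.8 to 82.0%). The share was lower at peak lactation by a difference of -3.70 percentage points (95% interval -6.57 to -1.04), in a class chosen after its values were seen and so given with no test.

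The class that differed most clearly was an A at the base where a read of miR-222 left the listed sequence. It held 389 reads in the dry library, or 6.21% of miR-222, and 92 reads in the lactation library, or 9.99%. The share was higher at peak lactation by 3.78 percentage points (95% interval 1.90 to 5.96, Fisher's exact test, adjusted p = 0.0053). The other class past the adjustment, which shares reads with it, was the reads of miR-222 that end in A, with 6.05% and 9.34% (adjusted p = 0.016). Neither class was among those set beforehand, and the share of A was singled out after seeing the data. The adjusted p-values do not cover that choice. For miR-221 an A at this place was more frequent in both libraries when all reads were counted, with 1291 reads (11.3%) and 163 reads (13.5%), and the difference of 2.14 points (0.23 to 4.25) did not pass the adjustment (adjusted p = 0.27). Whether the change of miR-222 exceeded that of miR-221 was not tested.

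Within miR-222 the A most often followed base 21, in 278 reads (4.44%) of the dry library and 69 reads (7.49%) of the lactation library. The tail AA after base 21, printed above, held 104 reads (1.66%) and 31 reads (3.37%). It was the tag whose share differed past the adjustment over the 22 frequent tags (adjusted p = 0.022, Fisher's exact test). Per clean read its level still went down, with a log2 fold change of -1.83. This was the smallest decrease among the 13 tags with at least 1% of the reads of miR-222, which reached -3.18. It was also smaller than that of all conserved miRNA reads per clean read (-2.08). Per conserved miRNA read the level of this tag was therefore higher at peak lactation. The tail AU after base 21 held 97 reads (1.55%) and 21 reads (2.28%) and did not differ past the adjustment (adjusted p = 0.34). A read with AU can also be the listed sequence with 1 substitution, and the part of sequencing error in it was not tested. When all reads that 1 substitution could give were left out, an alternative chosen after seeing the data, A at the point of leaving made up 2.27% and 4.66% of miR-222, a difference of 2.39 points (1.10 to 4.05). For miR-221 the same step left 58 and 13 reads with such an A, or 0.582% and 1.27%. The listed miR-221 is 1 base shorter, so the step dropped all its reads that left after base 21 (1134 and 134 with an A). Reads of miR-222 with AA after base 21 were kept, so these shares cannot be compared between the mates.

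Among 80 conserved miRNAs with at least 900 reads in each library, the share of A at the point of leaving had a median of 2.25% in the dry library and 2.16% in the lactation library over the 78 miRNAs other than the pair, and it was higher at peak lactation in 32 of the 78. miR-221 stood 10th and 8th by this share, and miR-222 17th and 12th. By the difference between the libraries miR-222 stood at place 2 and miR-221 at place 5. The share of A had been singled out for its difference in miR-222, so a high place of miR-222 adds no support. With 921 reads in the lactation library, miR-222 was also close to the filter of 900 reads, where counting error is largest. The 80 miRNAs include pairs with the same counts, such as miR-16a and miR-16b. Reads that left the listed sequence with any base had a median share of 4.73% and 4.65% over the same 78 miRNAs, with a median difference of -0.04 points. By the difference of this share miR-222 stood at place 2 and miR-221 at place 3 of the 80. Reads with an A are part of this share, so the same limits apply. The share of shorter reads had a median difference of -0.03 points and was higher at peak lactation in 36 of the 78.

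**Figure D5:**
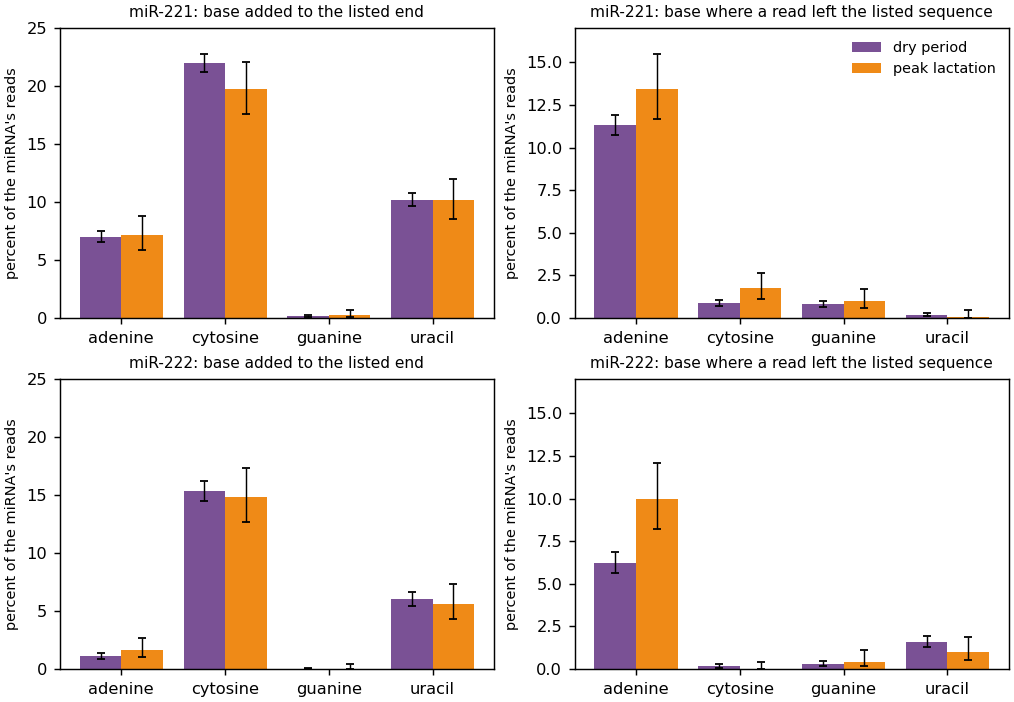
Share of the reads of miR-221 (top) and miR-222 (bottom) with each base added directly after the listed sequence (left) or at the point where a read left it (right), in percent of the reads of the miRNA, with Wilson 95% intervals; bars start at 0. Added bases are mostly cytosine and uracil in both libraries, bases at the point of leaving are mostly adenine, and for miR-222 adenine goes from 6.21% to 9.99%.

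The 5′ end, which sets the seed, was nearly fixed. Among reads that hold bases 3 to 18 at any place, 48 of miR-221 in the dry library (0.418%) and 6 in the lactation library (0.493%) did not start at the listed base. For miR-222 these were 14 (0.222%) and 4 reads (0.431%). Most of those of miR-221 started 1 base downstream, with 43 and 6 reads. Neither difference passed the test (unadjusted p = 0.64 and 0.28, Fisher's exact test), and counts this small limit it, with an interval of -0.22 to 0.66 points for miR-221 and -0.094 to 0.89 points for miR-222.

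Reads with 1 substitution in bases 1 to 18, which the counting rule left out, made up 2.27% and 2.18% of miR-221 (265 and 27 reads) and 2.34% and 2.23% of miR-222 (150 and 21 reads). In the dry library base 3 was substituted most often in both miRNAs, in 0.454% of the reads of miR-221 and 0.421% of those of miR-222. The leading substitution there was C3G (listed base, position from the 5′ end, base read), with 34 and 3 reads for miR-221 and 17 and 0 reads for miR-222. Substitutions in the seed made up 1.10% and 1.21% for miR-221 and 1.04% and 0.955% for miR-222. None of the 18 positions differed between the libraries past the adjustment in either miRNA.

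The counting rule itself left out few reads at its edge. Exactly 18 identical bases were found in 77 and 13 reads of miR-221 and in 68 and 7 reads of miR-222, and exactly 17, just outside the rule, in 20 and 3 reads and in 4 and 1 reads.

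The opposite arm of the miR-222 hairpin was not detected as a miRNA. Of 5224 reads of the dry library that were identical to a stretch of the precursor, 1 lay on the 5′ side of the mature miRNA, and of 734 such reads of the lactation library 0 did. The 3 reads that a count of 0 allows are 0.409% of the reads of the 3p arm in the lactation library. In the dry library 99.8% and in the lactation library 99.7% of the reads identical to the precursor began at position 69, the first base of the mature miRNA. A change of arm use between the stages was therefore not detectable at this depth. The opposite arm of miR-221 was not analysed here.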

How the data were processed

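Small RNA of the mammary gland was sequenced in 1 Solexa library per stage. The authors removed low-quality reads, reads lacking the 3′ adaptor or an insert, 5′ adaptor contaminants, poly(A) reads and short reads, collapsed identical reads and deposited each tag with its count of clean reads, neither normalized nor aligned. Their own later analysis mapped clean reads to the bovine genome with SOAP, allowing 1 mismatch; the build is not given in the sources used here.

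Tags were matched to the mature sequences listed in the study's supplement by at least 18 identical bases from the 5′ end, and ties were counted for each miRNA. Counts were expressed as RPM, 0.01 RPM stood in for a count of 0, and the test took miRNAs that reached 1 RPM in at least 1 library. The Audic-Claverie probability of the study's methods (two-sided from the smaller tail) was used, since 1 library per stage leaves edgeR and DESeq2 no spread to test with. Shares were compared by Fisher's exact test with Wilson, Newcombe and Woolf 95% intervals. Reads are not independent molecules, so intervals cover counting error only. Depth allowed levels down to 3 reads, or 0.20 and 0.19 RPM. The members, marker lists and tests were chosen with earlier results of these data known. Named miRNAs were the pair, those sharing its seed, the 3 nearest in fold change to each member among miRNAs with at least 1000 dry period reads, 3 other pairs of neighbours and tags of at least 1% of the reads.

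Alternatives covered the denominator (conserved miRNA reads, TMM factors of edgeR 4.0.16, size factors of DESeq2 1.42.0, in R 4.3.3), the counting rule, low counts and the test. Analyses ran in Python 3.11.15 (scipy 1.17.1, numpy 2.4.6, with plots by matplotlib 3.10.9). The counting, the calls and the interval of the difference between the mates were tested on simulated data. The comparisons of end variants were not. Annotated gene neighbours came from RefSeq (ARS1.2). Quantitative PCR measurements were not analysed here.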

Additional observations from a re-analysis of the deposited data

How the results depend on the processing

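The denominator mattered most. Divided by conserved miRNA reads, the log2 fold change of miR-222 was -0.76, short of the threshold, and that of miR-221 -1.23. With edgeR's TMM factors the values were -2.02 for miR-221 and -1.55 for miR-222, and with DESeq2's size factors -1.92 and -1.45, all past the thresholds. The conserved miRNAs called lower and higher numbered 15 and 85 per conserved miRNA reads, 48 and 22 with TMM factors, and 42 and 28 with size factors, against 174 and 3 per clean read. Under 6 ways of counting, the log2 fold changes ran from -3.42 to -3.32 for miR-221 and from -2.99 to -2.84 for miR-222, and the difference between the mates from -0.49 to -0.43, past its threshold in each.

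Among the small shares, the share of shifted 5′ ends of miR-222 turned from 0.21 points higher at peak lactation to -0.096 points when tags of 1 read were left out, on 6 and 0 reads. The excess of shorter reads of miR-221, 1.83 points, was 1.03 points with 20 nt anchored and then no longer had an unadjusted p below 0.05. The share of A where miR-221 left the listed sequence was 1.59 points higher without tags of 1 read, also short of that threshold. That of miR-222 stayed between 2.39 and 3.98 points and past it under the 3 alternatives. Both this share and its alternatives were chosen after seeing the data. The cause of these changes was not tested. An alternative for the opposite arm, its most read tag, gave no value because that arm had 1 read in the dry period library. No paired analysis was possible because each stage had 1 library, and for the same reason no library could be left out.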
